A study of Homo sapiens with 4 samples.

Results

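The genes described here are 36 members of the pathways that make cholesterol and fatty acids, chosen by gene symbol from their known function. Earlier results of these data were known when they were chosen. They comprise 7 regulators of the sterol regulatory element-binding proteins (SREBPs), 7 enzymes of the mevalonate and isoprenoid steps, 11 enzymes of the squalene and sterol steps, 1 sterol carrier, 4 enzymes of fatty acid synthesis, and 6 enzymes of fatty acid desaturation, elongation and activation. All 36 were among the 14431 genes of the deposited table and among the 14199 genes tested.

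RNA-seq was performed in HGC27, a human gastric cancer cell line, after transfection with an siRNA against AARS1 (siAARS1, 2 libraries) or as a control (2 libraries), in a study that asked whether AARS1 acts on the growth of tumor cells through Hippo signaling. AARS1 is the cytoplasmic alanyl-tRNA synthetase, which the study examines as a lactyltransferase. By the labels, the control cells were wild type and the other cells had AARS1 knocked down, and cells of both groups were kept in DMEM without glucose, with serum and 25 mM lactate, for 24 h. Another duration is stated in the study's text, so this time is uncertain, and no library without lactate was compared. Each group was a knockdown or control in 1 cell line, the labels do not say whether replicates were separate cultures, and p-values measure only the spread between these libraries, which may be technical.

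Cells make cholesterol from acetyl-CoA through mevalonate, isoprenoid pyrophosphates, squalene and lanosterol, and make fatty acids from the same acetyl-CoA through malonyl-CoA. SREBPs are transcription factors held in the membrane of the endoplasmic reticulum by SCAP and the INSIG proteins while sterols are plentiful. When sterols fall, SCAP carries the SREBPs to the Golgi in COPII vesicles, a pair of proteases releases their active part, and many genes of both pathways are transcribed more. In tumor cells these pathways supply membranes and are often active.

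In the libraries, AARS1 (listed as AARS, chr16:70252295-70289543 on hg38) was at 428 and 417 CPM (reads of a gene scaled to the size of its library) in the controls and 292 and 298 CPM after siAARS1. The siAARS1 libraries thus kept 69.7% of the control level, a log2 fold change of -0.52 (SE 0.0357, adjusted p = 2.52e-11 by limma), and -0.21 after the correction for GC content and length described below. Between 30653210 and 33522573 reads a library fell in listed genes, so that 1 read equalled 0.0293 to 0.0324 CPM. Markers of epithelial cells were few and low for a line of gastric origin. Of 7 epithelial markers, EPCAM, KRT18 and KRT19 were not listed, and the 4 listed summed to 45.5 and 46.3 CPM in the controls and 14.4 and 14.6 CPM after siAARS1. All 7 fibroblast markers were listed and summed to 6605 to 6818 CPM in the controls and 4803 to 4897 CPM after siAARS1, with COL3A1 at 3654 and 3755 against 2627 and 2610.3 CPM. Of the 7, 5 were called lower and 2 higher, LUM at 118 and 125 against 211 and 225 CPM and DCN at 239 and 250.3 against 258 and 270.1 CPM, and 6 were called lower and 0 higher after the correction. Of 6 immune markers 2 were listed (5.07 to 5.31 CPM in sum in the controls and 3.92 to 4.30 CPM after siAARS1), and none of 4 endothelial markers was. The part of these differences in the results below was not tested. In such bulk libraries, fewer cells of a kind and less RNA per cell cannot be told apart.

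Most of the synthesis genes differed between the groups, and by little. Of the 36, 22 fell and 10 rose after siAARS1 (limma, adjusted p under 0.05 over all genes tested), against backgrounds of 38.0% of all tested genes called lower, 32.6% called higher and 70.7% called either way. The control and siAARS1 values did not overlap for 34 of the 36, where this held for 85.1% of all genes. As deposited, only TM7SF2, at 48.6% of control, changed by 2-fold or more. The median log2 fold change of the 36 was -0.18, against -0.054 for all genes, and their summed level went from 8901 and 9022 CPM to 8264 and 8295 CPM. This median depends on how the libraries are scaled. With every library divided by its own median, the median of all genes moved to -0.26 and that of the 36 genes to -0.41. With quantile normalization they were -0.15 and -0.21. Of the calls over all genes, 46.2% were higher as deposited, 29.7% under median scaling, 37.0% under quantile normalization and 62.5% after the correction for GC content and length, and of the 36 genes 9 were called higher and 26 lower under median scaling.

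**Figure D1:**
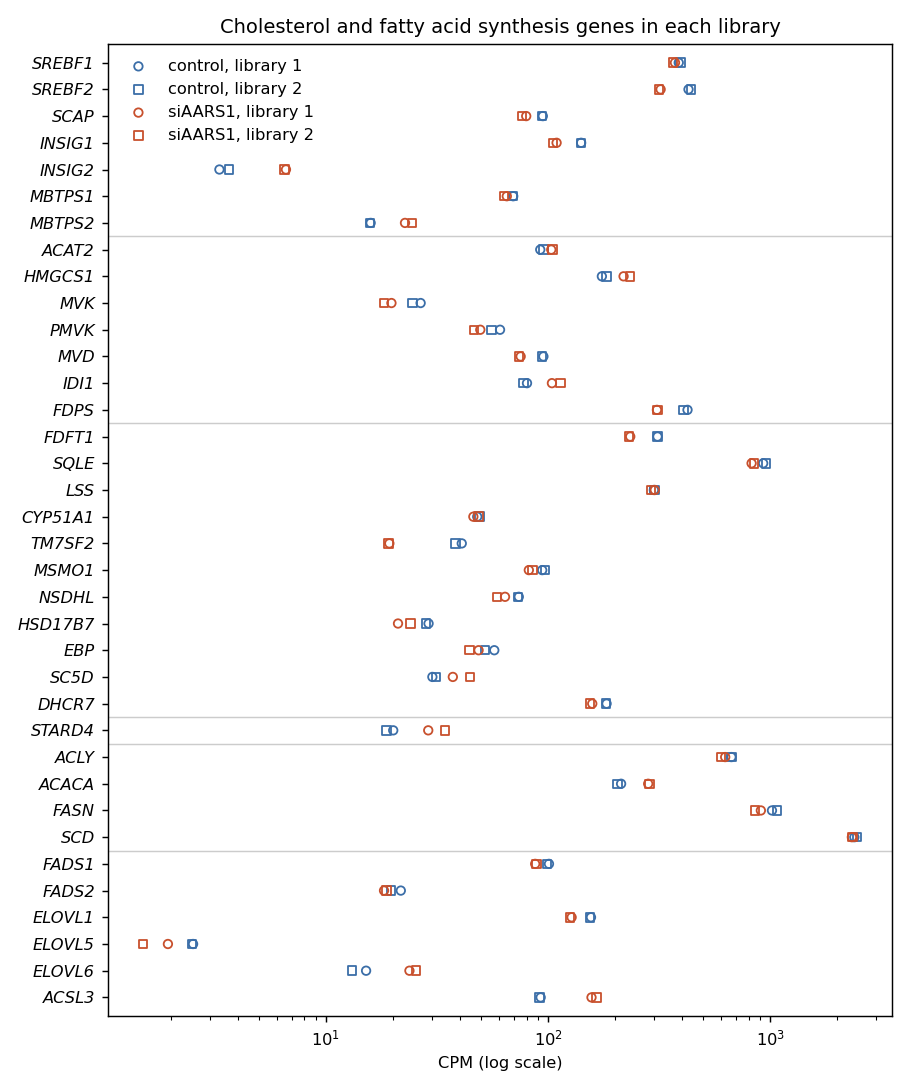
CPM (log scale) of the 36 cholesterol and fatty acid synthesis genes in each of the 4 libraries, ordered by pathway step, with grey lines between the steps (circles, library 1; squares, library 2; blue, control; red, siAARS1). The genes span from ELOVL5, at 1.504 CPM in its lowest library, to SCD, at 2456 CPM in its highest, and most pairs of colors sit close together without overlapping.

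The direction of these changes went with the base composition and the length of the transcripts, as it did across the whole table. In the quintile of all tested genes with the lowest GC content (up to 41.6%), the median log2 fold change was 0.77 and 79.8% of genes were called higher. In the quintile with the highest (from 59.1%), the median was -0.30 and 67.0% were called lower. The 10 genes of the pathways that rose had transcripts of 34.2% to 50.2% GC, with 8 of them in the lower 2 quintiles and none in the upper 2. The 22 that fell had a median GC content of 54.3%, with 12 in the upper 2 quintiles and 4 in the lower 2. Across the 36 genes, the log2 fold change had a Pearson correlation of -0.67 with GC content (Spearman -0.57), and across 13969 genes -0.61 (Spearman -0.65). With transcript length on the log2 scale, the Pearson correlation was 0.47 across the 36 genes (Spearman 0.53) and 0.33 across the 13969 (Spearman 0.30). The median transcript length was 3967 bases for the 10 genes that rose and 2706.5 bases for the 22 that fell. These correlations are over genes measured in the same 4 libraries and serve as a description.

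**Figure D2:**
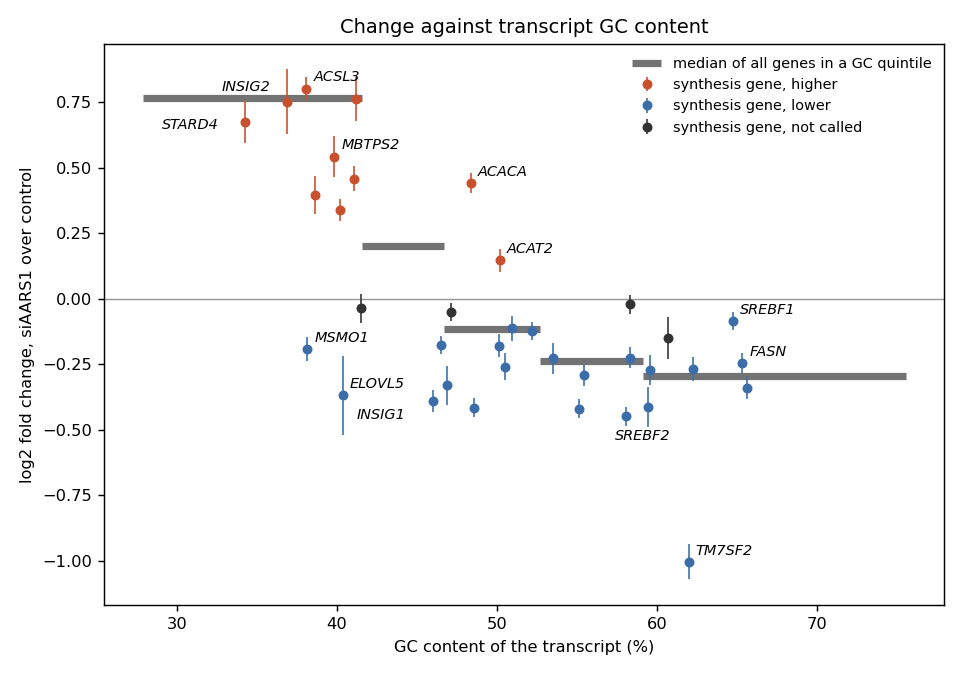
Log2 fold change of siAARS1 over control (y axis; bars, SE of limma) against the GC content of 1 transcript model per gene in percent (x axis) for the 36 synthesis genes, with the median of all tested genes in each quintile of GC content as grey segments. The points of the genes that rose lie at or below 50.2% GC, and MSMO1, ELOVL5 and INSIG1 lie below zero at low GC content.

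When a smooth trend on transcript GC content and length was taken out of each library, 13 of the 36 genes were called higher and 13 lower, against 42.1% and 25.3% of all genes, and 67.5% of all genes were called either way. The median of the 36 was then -0.013 and that of all genes 0.088. Only 8 of the 36 were called in the same direction before and after this correction, against 36.5% of all genes. They were ACAT2 and ACACA, which rose, and INSIG1, FDFT1, SQLE, TM7SF2, MSMO1 and ELOVL5, which fell. Of the 36, 21 had the opposite sign. ACACA, INSIG1, FDFT1, TM7SF2 and MSMO1 were the 5 genes called the same way in every one of the 13 other fits that were run, against 28.7% of all genes. The correction takes out GC content and length together, so a reversal is not credited to either alone. The cause of the trend was not tested.

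**Figure D3:**
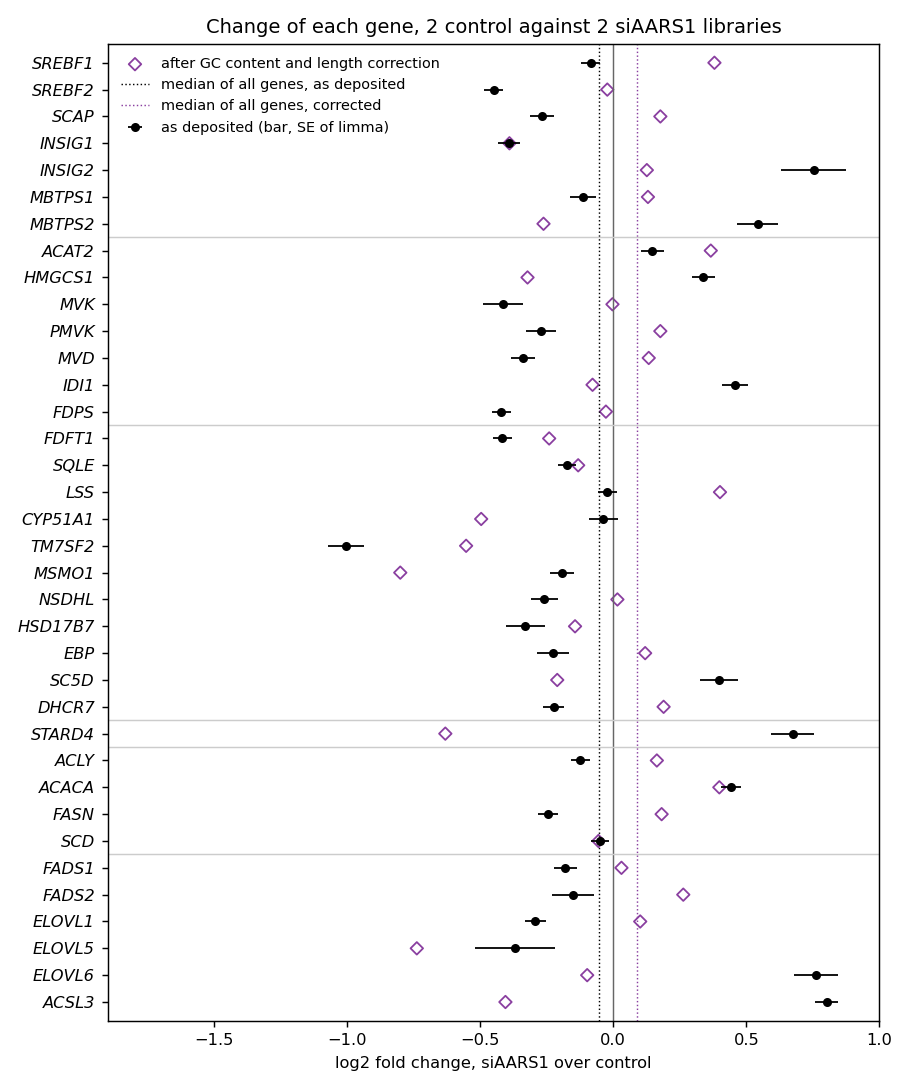
Log2 fold change of siAARS1 over control for each of the 36 genes as deposited (black points; bars, SE of limma) and after the correction for GC content and length (purple diamonds), with dotted lines at the median of all genes in each. TM7SF2, MSMO1, FDFT1 and INSIG1 lie left of zero and ACACA right of it with both symbols, while STARD4, ACSL3, HMGCS1 and SREBF1 lie on opposite sides of zero.

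Among the SREBP regulators, the transcripts of the factors themselves, of the escort SCAP, of the retention factor INSIG1 and of the site-1 protease were lower as deposited and those of INSIG2 and of the site-2 protease higher, but of the 7 only INSIG1 kept its call and direction after the correction. SREBF2, which encodes the factor best known for driving cholesterol genes, was at 429 and 441 CPM in the controls and 321 and 316 CPM after siAARS1. This was a log2 fold change of -0.45 (SE 0.0356, adjusted p = 2.75e-10 by limma), but -0.022 after the correction (adjusted p = 0.479). SREBF1, which encodes the factors best known for driving fatty acid genes, was at 388 and 395 CPM against 373 and 365 CPM. Its log2 fold change was -0.085 (adjusted p = 0.0379 by limma), and 0.38 after the correction, and it was not called by edgeR, by DESeq2, under quantile normalization, or without either control library or siAARS1 library 2. Per kilobase of transcript, SREBF1 and SREBF2 had similar levels in the controls, 93.7 and 83.1 CPM, and stood at 88.4 and 60.8 CPM after siAARS1.

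The balance between these paralogs was read within each library, where scaling has no part. The ratio of SREBF1 to SREBF2 was 0.904 and 0.895 in the controls and 1.16 and 1.16 after siAARS1. The ratio was thus higher in both siAARS1 libraries than in both controls, by 0.37 on the log2 scale and by 0.40 after the correction. These ratios are of CPM not divided by length, and per kilobase SREBF1 was above SREBF2 in all 4 libraries. With 2 libraries against 2, an exact permutation test cannot give a p below 0.333, and no test of single ratios was made. Picked for its likeness, a stretch does not show how alike the whole coding sequences are. The stretch of their coding sequences most alike is printed here from GENCODE release 29 (hg38), with the 30 of 150 bases that differ in capitals. It covers coding positions 3037 to 3186 of SREBF1 (chr17:17810399-17837002, minus strand) and 3028 to 3177 of SREBF2 (chr22:41833079-41907308, plus strand).
SREBF1: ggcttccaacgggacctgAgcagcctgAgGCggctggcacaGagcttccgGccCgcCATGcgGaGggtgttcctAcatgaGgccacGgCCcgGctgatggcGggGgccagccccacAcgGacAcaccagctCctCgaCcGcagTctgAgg
SREBF2: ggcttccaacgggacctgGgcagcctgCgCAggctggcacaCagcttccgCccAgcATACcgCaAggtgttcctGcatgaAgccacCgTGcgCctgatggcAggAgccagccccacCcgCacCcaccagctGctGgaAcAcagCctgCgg
In the whole coding sequence, GC content was 65.3% for SREBF1 and 59.2% for SREBF2, and SREBF1 overlaps RAI1 and SREBF2 overlaps SREBF2-AS1 on the other strand.

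SCAP, the escort of the SREBPs, was at 94.7 and 93.9 CPM in the controls and 79.8 and 76.5 CPM after siAARS1. Its log2 fold change of -0.27 (adjusted p = 2.22e-05 by limma) became 0.18 after the correction. INSIG1, which holds SCAP in the endoplasmic reticulum and is itself an SREBP target, fell from 141 and 141 CPM to 109 and 105 CPM. The log2 fold change was -0.39 (SE 0.0419, adjusted p = 3.53e-08 by limma) and -0.39 after the correction (adjusted p = 2.14e-07), and it lay between -0.62 and -0.34 in all fits. INSIG2, its paralog with the same role, was far lower and moved the other way, from 3.31 and 3.66 CPM to 6.61 and 6.50 CPM. Its log2 fold change was 0.75 (SE 0.123, adjusted p = 1.37e-05 by limma) but 0.13 after the correction (adjusted p = 0.348).

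The ratio of INSIG1 to INSIG2 in a library therefore dropped from 42.5 and 38.5 in the controls to 16.5 and 16.2 after siAARS1, a log2 difference of -1.31, or -0.55 after the correction. The coding stretch most alike in the 2 genes is given here from GENCODE release 29, with the 32 of 150 bases that differ in capitals. It lies at coding positions 391 to 540 of INSIG1 (chr7:155297776-155310235, plus strand) and 223 to 372 of INSIG2 (chr2:118088452-118110997, plus strand).
INSIG1: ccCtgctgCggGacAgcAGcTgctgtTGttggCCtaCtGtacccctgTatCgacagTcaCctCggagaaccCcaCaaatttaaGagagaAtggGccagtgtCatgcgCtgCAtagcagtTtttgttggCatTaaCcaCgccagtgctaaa
INSIG2: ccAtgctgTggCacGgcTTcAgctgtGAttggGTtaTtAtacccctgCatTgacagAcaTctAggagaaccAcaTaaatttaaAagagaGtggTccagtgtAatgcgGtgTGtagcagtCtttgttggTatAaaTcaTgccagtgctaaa
GC content in this stretch was 52.7% for INSIG1 and 44.0% for INSIG2, and at the third codon positions of the whole coding sequence it was 65.3% and 32.9%. Over the transcripts it was 46.0% and 36.9%.

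The site-1 protease gene MBTPS1, whose product makes the first cut in an SREBP, was at 69.7 and 69.6 CPM against 65.2 and 63.4 CPM. Its log2 fold change of -0.11 (adjusted p = 0.0422 by limma) was not called by edgeR or DESeq2, nor without either control library or without siAARS1 library 2, and became 0.13 after the correction. The site-2 protease gene MBTPS2, whose product makes the second cut within the membrane, was at 15.9 and 15.8 CPM against 22.7 and 24.4 CPM. Its log2 fold change of 0.54 (SE 0.0774, adjusted p = 2.34e-06 by limma) became -0.26 after the correction. The ratio of MBTPS1 to MBTPS2 went from 4.38 and 4.41 to 2.87 and 2.60, a log2 difference of -0.69 that turned to 0.41 after the correction. MBTPS2 shares its strand and locus with YY2.

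**Figure D4:**
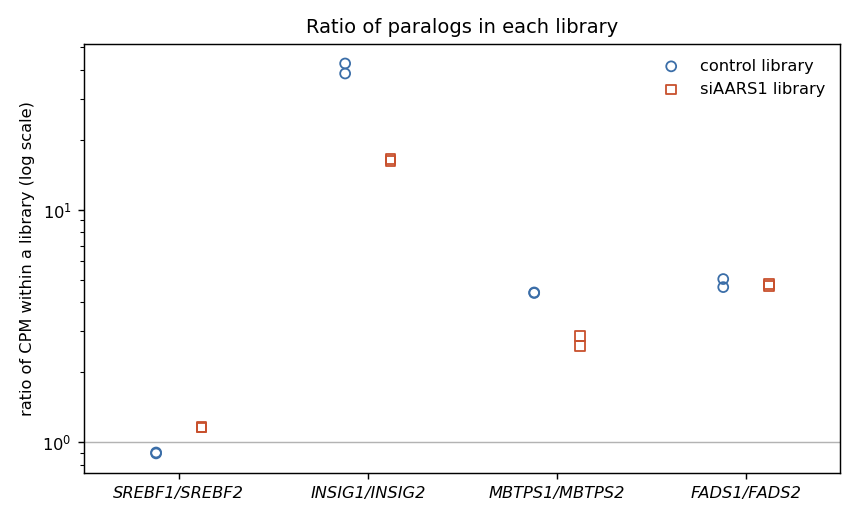
Ratio of the CPM of paralogs within each library (log scale) for SREBF1 over SREBF2, INSIG1 over INSIG2, MBTPS1 over MBTPS2 and FADS1 over FADS2 (blue circles, 2 control libraries; red squares, 2 siAARS1 libraries; grey line, ratio of 1). The CPM, not divided by transcript length, give the first pair a higher ratio after siAARS1. The INSIG and MBTPS pairs are lower after siAARS1, the latter only before the correction for GC content and length, and the control values of the FADS pair span those after siAARS1 as deposited.

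Of the 7 mevalonate and isoprenoid enzymes, 3 rose and 4 fell as deposited, with a median log2 fold change of -0.27, and after the correction 3 were called higher and 1 lower, with a median of -0.0031. The early steps were higher as deposited. ACAT2, which joins acetyl-CoA units, went from 92.3 and 95.4 CPM to 103 and 105 CPM, a log2 fold change of 0.15 (SE 0.0438, adjusted p = 0.00533 by limma) and of 0.37 after the correction, but of -0.080 under median scaling. It was not called without control library 1, and it overlaps TCP1 on the other strand. HMGCS1, which makes HMG-CoA in the cytosol, was at 175 and 183 CPM against 219 and 234 CPM, a log2 fold change of 0.34 (SE 0.0417, adjusted p = 2.93e-07 by limma) that reversed to -0.32 after the correction (adjusted p = 2.57e-07).

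The enzymes that phosphorylate and decarboxylate mevalonate were all lower as deposited. Mevalonate kinase (MVK) was at 26.7 and 24.5 CPM against 19.7 and 18.2 CPM, phosphomevalonate kinase (PMVK) at 60.8 and 55.7 CPM against 49.5 and 46.5 CPM, and mevalonate diphosphate decarboxylase (MVD) at 95.3 and 94.0 CPM against 75.3 and 73.9 CPM. Their log2 fold changes were -0.41, -0.27 and -0.34, with adjusted p = 5.71e-05, 2.24e-04 and 9.01e-07 by limma. After the correction they were -0.0031, 0.18 and 0.13, with PMVK and MVD called higher. These 3 transcripts have 59.4% to 65.6% GC.

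IDI1, the isomerase that makes dimethylallyl pyrophosphate, was at 80.4 and 77.5 CPM in the controls and 104 and 114 CPM after siAARS1. Its log2 fold change was 0.46 (SE 0.0486, adjusted p = 3.11e-08 by limma) and -0.078 after the correction. FDPS, the farnesyl pyrophosphate synthase and the most abundant of these 7 per kilobase, was at 425 and 406 CPM against 309 and 311 CPM. The log2 change of -0.42 (SE 0.0363, adjusted p = 1.15e-09 by limma) was -0.028 after the correction (adjusted p = 0.384). FDPS has 8 named pseudogenes in the annotation, none of them listed, so its reads could be shared with copies.

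Among the squalene and sterol steps, 4 of 11 enzymes (36.4%) were called the same way before and after the correction, against 36.5% of all genes. All 4 fell. Of 11 enzymes, 8 fell and 1 rose, with a median log2 fold change of -0.22, and after the correction 6 were called lower and 2 higher, with a median of -0.14. FDFT1, the squalene synthase, went from 311 and 312 CPM to 235 and 232 CPM. The log2 fold change was -0.42 (SE 0.0361, adjusted p = 1.21e-09 by limma) and -0.24 after the correction (adjusted p = 2.06e-06). SQLE, the squalene epoxidase and an early rate-controlling enzyme of the branch, was one of the most abundant transcripts of the pathways at 931 and 957 CPM against 825 and 847 CPM. On the log2 scale the change was -0.17 (SE 0.0345, adjusted p = 1.24e-04 by limma) and -0.13 after the correction, and it was not called under quantile normalization. Both genes lie on chromosome 8.

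The enzymes that make lanosterol and first act on it gave no call as deposited. LSS, which closes the sterol rings, was at 299.7 and 302 CPM against 303 and 290.2 CPM, with a log2 fold change of -0.022 (adjusted p = 0.606 by limma) that became 0.40 after the correction (adjusted p = 7.63e-09). CYP51A1, which removes the methyl group at carbon 14 of lanosterol, was at 48.0 and 49.1 CPM against 46.1 and 48.5 CPM. The log2 change of -0.037 (adjusted p = 0.556 by limma) became -0.50 after the correction (adjusted p = 2.2e-07). These were the only 2 of the 36 genes whose groups overlapped, and they took opposite signs under the correction. CYP51A1 has 3 named pseudogenes, none of them listed.

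TM7SF2, one of the sterol reductases acting at carbon 14, had the largest change of the 36 genes as deposited. It was at 40.9 and 38.3 CPM in the controls and 19.3 and 19.2 CPM after siAARS1, a log2 fold change of -1.004 (SE 0.0671, adjusted p = 1.5e-11 by limma). After the correction it was -0.55 (adjusted p = 1.48e-06), and in all fits it lay between -1.22 and -0.55. Its locus (chr11:65111845-65116384) overlaps that of VPS51 on the same strand, so reads there could be split between the genes. MSMO1, the methyl sterol oxidase of the next step, fell from 94.1 and 97.2 CPM to 82.0 and 85.2 CPM. This small difference, a log2 fold change of -0.19 (SE 0.0455, adjusted p = 8.02e-04 by limma), was the largest fall of the 36 after the correction, -0.80 (adjusted p = 1.58e-10). MSMO1 was 1 of 2 transcripts of these pathways in the lowest quintile of GC content (38.1%) that fell, where the median of all genes was 0.77, and the other was ELOVL5.

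The later demethylation and reduction steps were lower by similar amounts. NSDHL, which removes the carbon-4 carboxyl, was at 73.8 and 73.4 CPM against 64.0 and 58.8 CPM, HSD17B7, the ketoreductase, at 28.98 and 28.1 CPM against 21.1 and 24.0 CPM, and EBP, the sterol isomerase, at 57.3 and 52.1 CPM against 48.7 and 44.4 CPM. Their log2 fold changes were -0.26, -0.33 and -0.23 (adjusted p = 1.3e-04, 4.3e-04 and 0.00198 by limma) and 0.015, -0.14 and 0.12 after the correction, none of which was called. With the replicate block, the corrected values of HSD17B7 and EBP were called (adjusted p = 0.0458 and 0.0215 by limma). DHCR7, which makes cholesterol from its last precursor, went from 183 and 182 CPM to 158 and 154 CPM, a log2 fold change of -0.22 (adjusted p = 2.83e-05 by limma) that became 0.19 after the correction. Only SC5D, the desaturase just before DHCR7, was higher as deposited, at 30.1 and 31.3 CPM against 37.3 and 44.6 CPM. The log2 change of 0.40 (SE 0.0718, adjusted p = 4.74e-05 by limma) also reversed, to -0.21. A pseudogene of HSD17B7 was listed beside it, and EBP was not called without control library 1 or without siAARS1 library 2.

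STARD4 is a soluble carrier that moves cholesterol between membranes. It was at 20.1 and 18.7 CPM in the controls and 28.9 and 34.4 CPM after siAARS1, a log2 fold change of 0.67 (SE 0.0798, adjusted p = 1.66e-07 by limma). With 34.2% GC it had the lowest GC content of the 36 transcripts, and after the correction the value was -0.63 (adjusted p = 2.49e-06), the widest swing of all. STARD4-AS1 overlaps it on the other strand.

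Of the 4 enzymes of fatty acid synthesis, ACACA rose while ACLY and FASN were lower as deposited and SCD was not called, and after the correction 3 of the 4 were called higher and SCD lower, the latter not with the replicate block. ACLY, which makes cytosolic acetyl-CoA from citrate, was at 669 and 671 CPM against 628 and 602 CPM, a log2 fold change of -0.12 (adjusted p = 0.00353 by limma) that was not called by DESeq2 and became 0.16 after the correction. ACACA, the acetyl-CoA carboxylase that commits acetyl-CoA to fatty acids (chr17:37084988-37406818, minus strand), went from 213 and 205 CPM to 282 and 287 CPM. The log2 fold change was 0.44 (SE 0.0376, adjusted p = 8.89e-10 by limma) and 0.40 after the correction (adjusted p = 4.13e-08), and it lay between 0.21 and 0.50 in all fits. In its quintile of GC content, the median of all genes was -0.11. FASN, the fatty acid synthase, was at 1019 and 1072 CPM against 908 and 857 CPM, a log2 fold change of -0.24 (SE 0.0376, adjusted p = 6.39e-06 by limma) and of 0.18 after the correction (adjusted p = 3.73e-05).

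SCD, which introduces the first double bond into saturated fatty acids, was the most abundant of the 36, both in CPM (2395 and 2456 in the controls and 2334 and 2352 after siAARS1) and per kilobase (452 and 437 CPM). The siAARS1 values were below both controls, but the log2 fold change was -0.050 (SE 0.0347, adjusted p = 0.205 by limma), and 0.10 under quantile normalization. After the correction it was -0.056 (adjusted p = 0.0395 by limma, and 0.0655 with the replicate block). The next in level per kilobase in the controls were SQLE at 319 CPM and FDPS at 281 CPM, and the lowest were INSIG2 at 1.35 CPM and ELOVL5 at 0.886 CPM.

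Among the enzymes that reshape and activate fatty acids, 2 rose and 3 fell as deposited, and after the correction 2 were called higher and 2 lower. FADS1 and FADS2, the desaturases of polyunsaturated fatty acids, were at 101 and 98.8 CPM against 87.5 and 88.6 CPM and at 21.7 and 19.6 CPM against 18.3 and 18.8 CPM. The log2 fold change of FADS1 was -0.18 (adjusted p = 0.00104 by limma) and 0.031 after the correction, and that of FADS2, which was not called, was -0.15 and 0.26. Their ratio was 4.65 and 5.03 in the controls and 4.79 and 4.72 after siAARS1, so the groups overlapped. After the correction the ratio was 5.02 and 5.44 in the controls and 4.501 and 4.31 after siAARS1, which did not overlap (-0.25 on the log2 scale). The loci overlap each other on opposite strands, and since the use of strand in counting is not given in the sources used here, reads in the overlap cannot be assigned. FADS2 also shares its strand and locus with FEN1.

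The elongases differed in direction. ELOVL1, which extends very long saturated chains, was at 156 and 154 CPM against 128 and 126 CPM, a log2 fold change of -0.29 (adjusted p = 1.37e-06 by limma) and of 0.10 after the correction. ELOVL5, which extends polyunsaturated chains, was close to the 1 CPM that every listed gene passed in some library, at 2.52 and 2.49 CPM (86 and 79 reads) against 1.94 and 1.504 CPM (60 and 50 reads). The log2 change of -0.37 (SE 0.151, adjusted p = 0.0348 by limma) was -0.74 after the correction, and it was not called by edgeR or DESeq2, nor without either control library or without siAARS1 library 2. ELOVL6, which extends palmitate to stearate, was at 15.2 and 13.1 CPM against 23.8 and 25.5 CPM. The log2 fold change was 0.76 (SE 0.0840, adjusted p = 5.67e-08 by limma) but -0.098 after the correction (adjusted p = 0.301).

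ACSL3, which activates long-chain fatty acids at the endoplasmic reticulum and lipid droplets, had the largest rise of the 36 as deposited. It went from 92.6 and 91.3 CPM to 157 and 165 CPM, a log2 fold change of 0.80 (SE 0.0428, adjusted p = 2.98e-13 by limma), which reversed to -0.41 after the correction (adjusted p = 1.54e-07). At 38.1% GC it lay in the quintile of genes whose median was 0.77.

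The promoters of the genes that the text turns on are shown for the motifs through which these genes are known to be controlled. SREBPs bind the sterol regulatory element, searched as TCACNCCAC, usually beside NF-Y, which binds CCAAT, or Sp1, which binds GC boxes (GGGCGG). SREBPs also bind E-boxes, searched as CACGTG. Each motif was searched on both strands in the 250 bases before and 50 after the start sites in RefSeq (GRCh38.p14). None of the 4 motifs holds another. Such a promoter was available for 32 of the 36 genes, and those of SQLE, FDFT1, FASN and ACAT2 were not searched. The printed windows end at the base before the start site, all on the plus strand, with sterol regulatory element, CCAAT and E-box matches in capitals. They are chr22:41832955-41833104 for SREBF2, chr7:155297728-155297877 for INSIG1, chr11:65111722-65111871 for TM7SF2, chr4:165327519-165327668 for MSMO1 and chr2:222860886-222861035 for ACSL3.
SREBF2: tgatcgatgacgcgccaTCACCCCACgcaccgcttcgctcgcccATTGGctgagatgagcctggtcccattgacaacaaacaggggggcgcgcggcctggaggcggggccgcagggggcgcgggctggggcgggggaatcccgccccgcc
INSIG1: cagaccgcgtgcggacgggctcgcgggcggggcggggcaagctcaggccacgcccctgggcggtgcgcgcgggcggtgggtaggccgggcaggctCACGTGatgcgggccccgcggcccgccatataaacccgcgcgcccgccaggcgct
TM7SF2: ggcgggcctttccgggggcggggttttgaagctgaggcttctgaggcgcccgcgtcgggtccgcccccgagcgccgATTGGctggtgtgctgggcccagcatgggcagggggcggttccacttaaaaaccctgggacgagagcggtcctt
MSMO1: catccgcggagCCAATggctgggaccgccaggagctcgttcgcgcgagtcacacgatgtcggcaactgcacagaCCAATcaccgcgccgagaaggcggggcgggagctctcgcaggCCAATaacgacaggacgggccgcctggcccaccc
ACSL3: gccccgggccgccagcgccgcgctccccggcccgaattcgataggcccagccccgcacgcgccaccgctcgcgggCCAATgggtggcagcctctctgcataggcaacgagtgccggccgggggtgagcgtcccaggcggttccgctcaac
SREBF2 holds the sterol element and, further on, a CCAAT match on the other strand. MSMO1 has 3 CCAAT matches in the window and 1 upstream of it, TM7SF2 and ACSL3 have 1 each in the window, and INSIG1 has an E-box in the window and a CCAAT match upstream of it.

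Over the 32 promoters, the sterol element as spelled here was found only in SREBF2, where 1.13% of the 35116 RefSeq promoters and 1.45% of the tested genes held it. CCAAT was found in 23 of 32 (71.9%), against 34.6% of all promoters and 43.7% of tested genes. It was in 6 of 9 genes that rose, 14 of 19 that fell and 3 of 4 that were not called. GC boxes were in 28 of 32 (87.5%), against 45.0% of all promoters and 77.5% of tested genes, and E-boxes in 5 of 32 (15.6%), against 7.26% and 12.6%. These matches are a description, and a motif that was not matched says only that these letters were not in the window.

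Beside the 36 genes, 7 lists of other genes of sterol and fatty acid metabolism were described, with genes of large rise or fall from each. Of 16 other sterol and isoprenoid enzymes, 6 rose and 4 fell, with a median of 0.14, but after the correction 6 were called higher and 8 lower, with a median of -0.041. The geranylgeranyl transferase subunit gene PGGT1B rose from 9.77 and 11.5 CPM to 17.6 and 18.1 CPM (log2 fold change 0.70, but -0.80 after the correction). Of 18 genes of SREBP turnover and sterol-regulated degradation, 8 rose and 8 fell, and 10 were called higher and 5 lower after the correction. The ubiquitin ligase gene FBXW7, whose product targets active SREBPs, went from 4.05 and 4.98 CPM to 8.32 and 8.87 CPM (0.80, and 0.22 after the correction, adjusted p = 0.0985).

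The COPII coat, which carries SCAP and the SREBPs to the Golgi, had 5 of 10 genes higher and 4 lower, with a median of 0.16, but 3 higher and 5 lower after the correction, with a median of -0.095. SEC24B, a cargo-binding subunit, rose from 11.6 and 12.0 CPM to 35.9 and 36.6 CPM. On the log2 scale the change was 1.54 (SE 0.0740, adjusted p = 4.62e-14 by limma) and 1.40 after the correction. SEC13 was at 156 and 156 CPM against 131 and 118 CPM (-0.33, but 0.077 after the correction).

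Of 28 genes of sterol transport, esterification and efflux, 8 rose and 15 fell, and 8 were called higher and 13 lower after the correction. OSBPL8, an oxysterol-binding protein of membrane contact sites, went from 5.95 and 7.28 CPM to 50.03 and 54.1 CPM (2.80, and 1.31 after the correction), and the lipoprotein receptor gene LRP1 from 398 and 403 CPM to 238 and 225 CPM (-0.79 and -0.36). Of 22 other genes of fatty acid synthesis and elongation, 6 rose and 11 fell, and 8 were called higher and 11 lower after the correction. ACSL4, an activator of polyunsaturated fatty acids, went from 10.9 and 10.8 CPM to 36.6 and 36.9 CPM (1.67 and 0.49). ACSS2, which makes acetyl-CoA from acetate, fell from 61.5 and 59.3 CPM to 29.01 and 27.9 CPM (-1.06, SE 0.0573, adjusted p = 3.68e-13 by limma, and -0.73 after the correction).

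Of 24 genes of glycerolipid synthesis, 3 rose and 14 fell, but after the correction 11 were called higher and 5 lower. GPAM, the first acyltransferase, went from 6.83 and 7.50 CPM to 18.9 and 17.6 CPM (1.24 and 0.39), and DGAT1, which makes triglyceride, from 17.5 and 18.4 CPM to 12.2 and 12.7 CPM (-0.49, and -0.065 after the correction, adjusted p = 0.485). Fatty acid oxidation had 2 genes higher and 15 lower of 21, with a median of -0.31, and 4 higher and 11 lower after the correction, with a median of -0.18. ACADM, the medium-chain dehydrogenase, had the largest rise of the 2 and went from 31.9 and 31.7 CPM to 78.9 and 84.4 CPM (1.33 and 0.89). ACADS, the short-chain dehydrogenase, fell from 15.0 and 14.6 CPM to 7.54 and 8.06 CPM (-0.84 and -0.41). In this list 12 of 21 genes (57.1%) were called in the same direction before and after the correction, against 36.5% of all genes. For the 36 synthesis genes it was 8 (22.2%), and in the other lists the share ran from 16.7% (glycerolipid synthesis) to 44.4% (SREBP turnover and sterol-regulated degradation).

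**Figure D5:**
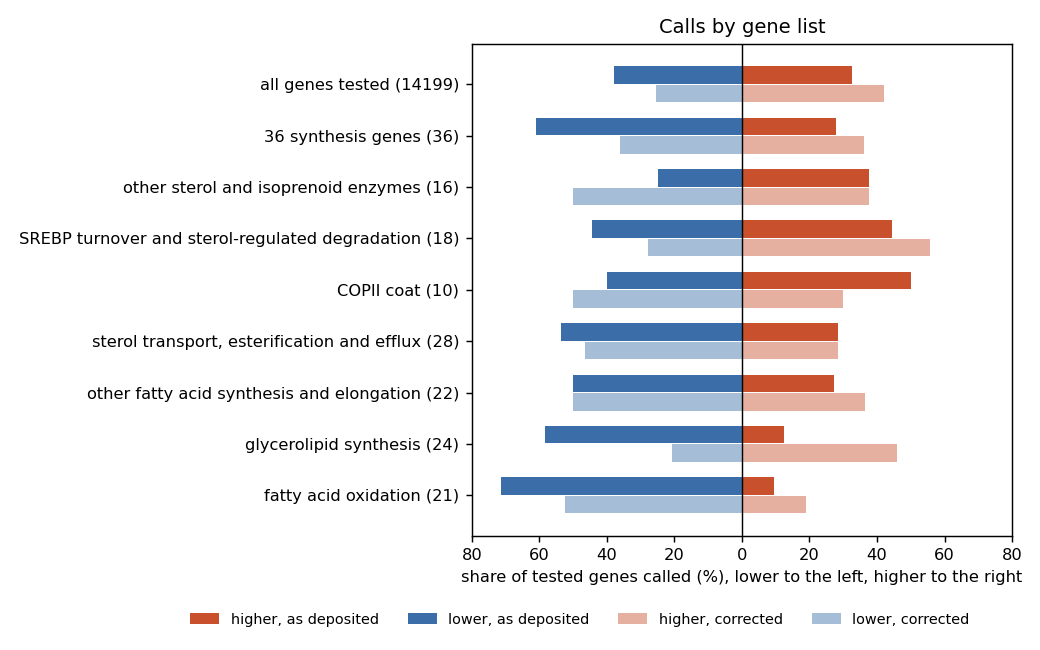
Share of tested genes (x axis, percent) called lower (blue, left) and higher (red, right) after siAARS1 in all genes, in the 36 synthesis genes and in 7 lists of other lipid genes, as deposited (full color; numbers tested in brackets) and after the correction for GC content and length (pale; 13969 of all genes). The blue bar of the 36 genes shrinks from 22 to 13 genes with the correction, and that of glycerolipid synthesis from 14 to 5.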

How the data were processed

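The 4 RNA-seq libraries of HGC27 cells, 2 control and 2 siAARS1, were grouped by the sample titles. The authors deposited 1 table of 14431 genes in CPM, the reads of a gene scaled to the library size. Per the submitters' processing notes, RSEM 1.3.3 and hg38 were used, and the aligner, annotation and use of strand are not given in the sources used here. Every listed gene exceeded 1 CPM in at least 1 library. All deposited values (100%) were whole multiples of 1 read within 0.1 read, which gave the reads used for edgeR and DESeq2. A count of 3 reads, the limit that 0 reads allow, equalled 0.0880 to 0.0971 CPM, for counting error only.

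siAARS1 was compared with control on log2(CPM + 1) by limma 3.58.1 with eBayes and its trend option (R 4.3.3). Genes with a group mean of 1 CPM or more in either group, 14199 in number, were tested. Fold changes on this scale understate the change of low genes. P-values were adjusted by Benjamini-Hochberg over these genes, and 0.05 was the threshold. Replicates differed beyond sampling noise (chi-square per gene 3.63 and 3.62) and were kept apart. GC content and length were those of 1 GENCODE release 29 transcript a gene (the longest principal one where marked), matched for 98.3% of listed genes. Their smooth trend (mgcv 1.9.3), estimated on genes of at least 5 CPM, was taken out of each library as an alternative. CPM per kilobase used the same lengths.

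The alternatives were a pseudocount of 0.1, no filter, median scaling, quantile normalization, the replicate number as a block, leaving out each library, a threshold of 0.01, edgeR 4.0.16 with TMM, DESeq2 1.42.0, and the GC content and length correction with and without the block. Limma, edgeR, DESeq2 and limma after the correction were also run on simulated counts, with an outcome not reported here. The trend added there was linear in GC content without length, so the length part of the correction was not tested. Replicates 1 and 2 exist in both groups, but no label says that a number marks a shared culture or day. The 36 genes, the other lists and the motifs were chosen with earlier results of these data known. All 36 genes are described, as is AARS1, and from each other list the called genes with the largest rise and fall and at least 5 CPM, except that some are not reported here. Sequences were read from RefSeq (GRCh38.p14) and GENCODE, without those on chromosome 8 and without promoters of FASN and ACAT2.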

Additional observations from a re-analysis of the deposited data

How the results depend on the processing

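With a pseudocount of 0.1, without the filter and with the replicate number as a block, all 36 genes kept their direction and their side of the threshold. Same-numbered libraries had deviations correlated at 0.118 over 2 pairs, which does not establish a pairing. The block raised the number of all genes called from 10032 to 10389 and left the members at 32. Without 1 library in turn, 27 to 32 of the 36 were called, 9 to 10 higher and 18 to 22 lower, the calls lost were those of SREBF1, MBTPS1, ACAT2, EBP and ELOVL5, and LSS, which was not called, ranged from -0.052 to 0.0080, the latter without siAARS1 replicate 2. The median of the 36, -0.18 as reported, ranged from -0.18 to -0.16 in these fits, and was -0.41 under median scaling, -0.21 under quantile normalization, -0.14 in edgeR and -0.13 in DESeq2. Under scaling or another tool, the sign turned for ACAT2 under median scaling (-0.080), SCD under quantile normalization (0.10) and in DESeq2 (0.0024), LSS in edgeR (0.016) and DESeq2 (0.030), and CYP51A1 in edgeR (0.0011) and DESeq2 (0.015). Of all calls, 50.3% were higher in edgeR and 53.8% in DESeq2. Once GC content and length were corrected for, with the replicate block or without, 13 of the 36 were called lower instead of 22 and the median of the 36 was -0.013. Of all genes, 3537 were called lower instead of 5399, and 3668 with the block, which among the 36 added the calls of HSD17B7 and EBP to the corrected fit and removed that of SCD. The values that turned under it, the same in both fits, were SREBF1 0.38, SCAP 0.18, MBTPS1 0.13, MBTPS2 -0.26, HMGCS1 -0.32, PMVK 0.18, MVD 0.13, IDI1 -0.078, LSS 0.40, NSDHL 0.015, EBP 0.12, SC5D -0.21, DHCR7 0.19, STARD4 -0.63, ACLY 0.16, FASN 0.18, FADS1 0.031, FADS2 0.26, ELOVL1 0.10, ELOVL6 -0.098 and ACSL3 -0.41. The cause of the trend it removes was not tested. The log2 ratio of INSIG1 to INSIG2 moved from -1.31 to -1.14 with a pseudocount of 1. With 2 libraries a group, no value was compared for outliers. ELOVL5 (50 to 86 reads) and INSIG2 (113 to 216 reads) rest on the fewest reads.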

Other observations

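Some genes of the other lipid lists had differences that kept their direction and call after the correction for GC content and length, and are named here after their values were seen. ABCA1, the efflux pump for cholesterol and a target of the liver X receptors, went from 62.2 and 67.3 CPM in the controls to 149 and 155 CPM after siAARS1, a log2 fold change of 1.22 (adjusted p = 1.12e-15 by limma) and of 0.75 after the correction. NR1H3, which encodes one of these receptors, was at 21.7 and 21.8 CPM against 15.3 and 14.7 CPM (-0.51 and -0.17). NR1H2, which encodes the other, did not keep its direction (-0.25, but 0.21 after the correction). ABCG1, of the same list as ABCA1, was not called as deposited (-0.080, but 0.27 after the correction). The oxysterol-binding protein genes OSBPL9 and OSBPL11 rose with OSBPL8, by 1.18 and 0.95 on the log2 scale, or 0.73 and 0.21 after the correction. The family did not rise together. OSBPL2 fell (-0.47 and -0.26), as did OSBPL5 (-0.49, but -0.050 after the correction). OSBPL3 and OSBPL6 turned from 0.45 and 0.87 to -0.33 and -0.42, and OSBPL7 and OSBPL10 were not called as deposited.

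Another COPII gene, SEC31A of the outer coat, rose from 115 and 116 CPM to 184 and 189 CPM (0.68 and 0.65). In fatty acid oxidation, the very-long-chain dehydrogenase gene ACADVL fell from 207 and 206 CPM to 131 and 128 CPM (-0.67 and -0.24), and the carnitine system genes CPT2 and SLC25A20 had values of -0.54 and -0.53, or -0.27 and -0.25 after the correction. The elongation reductase gene HSD17B12 rose from 10.5 and 9.46 CPM to 18.4 and 21.3 CPM (0.92 and 0.44).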
